A study of Mus musculus with 30 samples.

Results

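The genes described here are 50 splicing factors of 23303 entries in the expression table: every entry whose symbol begins with Srsf, Hnrnp, Sf3a, Sf3b or Snrp, together with Tra2a and Tra2b, unless the entry joins several symbols. They fall into 13 genes of the SR family, which here includes the SR-like Tra2a and Tra2b, 18 of the hnRNP family, 8 of the SF3 complexes and 11 of the Sm and small nuclear ribonucleoprotein group. Joined entries that hold Hnrnpa1, Hnrnpa3 and Snrpn were left out by this rule. The genes were measured in 30 RNA sequencing libraries, each from a pool of 2 male C57BL/6J mice of 2 to 3 months. Mice of the HC group stayed in the home cage and were handled only, mice of the FC group underwent auditory fear conditioning and were killed 2 h later, and mice of the Immo+FC group were immobilized for 2 h in the week before the same conditioning. Amygdala punches gave 6 HC, 6 FC and 4 Immo+FC libraries, and trunk blood depleted of globin transcripts gave 4 HC, 5 FC and 5 Immo+FC libraries. A punch takes all cells around the basolateral nucleus, a pool hides differences between its mice, and no group had immobilization alone, so Immo+FC against HC combines both experiences. Values are FPKM, which is fragments per kilobase of transcript scaled to the mapped fragments of the library, and they were normalised separately in each tissue.

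Splicing removes introns from a pre-mRNA and joins its exons. The Sm proteins form a ring on the small nuclear RNAs of the spliceosome, the SF3a and SF3b complexes belong to the U2 particle that binds the branch point of the intron, and the SR and hnRNP proteins bind exons and introns and bias which sites are used, SR proteins often towards inclusion of an exon and hnRNP proteins often against it. Several SR and hnRNP genes also control their own level, through an alternative exon that sends the transcript into nonsense-mediated decay. In GENCODE vM21, on the same mm10 build that the authors aligned to, 25 of the 50 genes have at least 1 transcript annotated for this decay, against 21.9% of the protein-coding genes of the table. The share was 11 of 13 (84.6%) in the SR family, 9 of 18 (50%) in the hnRNP family, 4 of 11 (36.4%) in the Sm group and 1 of 8 (12.5%) in the SF3 complexes. A value per gene sums over such transcripts, so productive and decaying forms were not separated.

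Tra2a was the 1 member that passed the test across all genes in any comparison, and its paralog Tra2b came next to it by p in FC against HC of the amygdala, so the sequence upstream of both genes is shown. Both encode SR-like proteins that bind GA-rich exonic enhancers. Tra2a lies on the minus strand of chr6:49243924-49264033 and Tra2b on the minus strand of chr16:22244549-22266005, and each is protein-coding. The 250 bases before the RefSeq start sites (build GRCm38.p6, minus strand, written 5′ to 3′) are given below, with capitals marking the full cAMP response element TGACGTCA in Tra2a and a GAANNTTC match, the core of a heat shock element, in Tra2b.
Tra2a, chr6:49264053-49264302: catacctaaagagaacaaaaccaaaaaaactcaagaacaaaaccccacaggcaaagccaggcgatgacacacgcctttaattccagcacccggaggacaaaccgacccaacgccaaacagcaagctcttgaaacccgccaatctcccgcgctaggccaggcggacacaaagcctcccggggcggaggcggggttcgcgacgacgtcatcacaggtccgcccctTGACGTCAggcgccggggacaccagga
Tra2b, chr16:22266006-22266255: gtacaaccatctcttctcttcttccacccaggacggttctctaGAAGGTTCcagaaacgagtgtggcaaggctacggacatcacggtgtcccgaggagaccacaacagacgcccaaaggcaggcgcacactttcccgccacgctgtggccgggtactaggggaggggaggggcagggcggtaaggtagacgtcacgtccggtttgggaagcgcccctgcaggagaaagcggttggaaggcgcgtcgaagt
The match of Tra2a spans bases 27 to 20 before the start and that of Tra2b bases 207 to 200. Promoter sequences running from 250 bases before to 50 after the start were available for 44 of the 50 genes, with 58 start sites, and 4 motifs were searched on both strands. TGACGTCA was in 3 of 58 (5.17%, in Snrpa, Snrpg and Tra2a) against 1.79% of all promoters. GAANNTTC was in 9 of 58 (15.5%, in Hnrnpa2b1, Hnrnpf, Hnrnpl, Sf3b2, Snrpd2, Srsf9 and Tra2b) against 7.86%. These count start sites, so a gene with several start sites can count more than once. The clock E-box CACGTG was in 6 of 58 (10.3%) against 7.15%, and the palindromic glucocorticoid response element in 0 of 58 against 0.475%. The median GC content was 62.3% in the 58 promoters and 52.7% in all, and a match describes these letters only. The shares were not matched for GC content, so they do not show that a motif is enriched in these genes.

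Several features of the libraries bear on the values. Amygdala libraries held 23148078 to 31366290 sequences and blood libraries 9081977 to 25892322, the lowest in HC blood library 4. In amygdala every one of 10 neuron markers was above 0 in all libraries (2530 to 3040 FPKM summed), and in blood all 12 neutrophil, 8 B cell and 11 T cell markers were. The mean log2 level of genes with transcripts over 10000 bases, centred over the amygdala libraries, was -0.32 to -0.09 in FC, -0.18 and -0.13 in HC libraries 1 and 2 and -0.22 in Immo+FC library 1, and 0.21 to 0.26 in the other HC and Immo+FC libraries. Of the 50 genes only Hnrnpr has so long an annotated transcript. The amygdala libraries numbered 1 stood apart in all 3 groups: library 1 was the highest of each group for 13 of the 50 members, against 4.93% of all tested genes, and the lowest of each for 2 members (Snrpd3 and Sf3b2), against 6.66%. The libraries numbered 2, 3 or 4 did so for 1 member at most (Hnrnph1, highest in number 3) and for 0.0962 to 0.526% of genes. In blood the most abundant entry was Hbb-bt, an adult beta globin, in HC libraries 3 and 4 (128031 and 68605 FPKM) and Tmsb4x in the other libraries. The lanes of the libraries are not given in the sources used here, so lane and group cannot be told apart. In bulk tissue, expression values alone do not tell fewer cells of a type from less RNA per cell, and p-values measure the spread between pools of mice. For blood the paper also counted cells. It reports more neutrophils and fewer lymphocytes, as shares of the cells, in Immo+FC than in FC or HC. The paper found no such difference between HC and FC. Those counts were not entered in the fits here.

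The minimum for the test, a mean of 0.5 FPKM over the libraries of the tissue, was reached by 50 of the 50 genes in amygdala and by 49 in blood. The highest amygdala levels in the hnRNP family were those of Hnrnpa2b1, which binds UAG-containing RNA and has a role in RNA transport (mean 160 FPKM, 149 to 168 over the 16 libraries), Hnrnpk, a binder of C-rich RNA (119 FPKM), and Hnrnpu, which attaches RNA to chromatin (99.2 FPKM). In the SR family Srsf5 led with 114 FPKM, followed by Srsf2 and Srsf11. Snrpd2 (92.2 FPKM), Snrpd3 (72.6 FPKM) and Snrpb, all core proteins of the Sm ring, led the Sm group, and Sf3b2, Sf3b1 and Sf3b5 led the SF3 genes. Hnrnpf was the lowest, with 6.05 FPKM.

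In blood the order was different. The ring proteins Snrpg (mean 204 FPKM) and Snrpe (181 FPKM) were the 2 highest of all members, ahead of Hnrnpa2b1 (171 FPKM), Snrpd2 (164 FPKM) and Hnrnpk (149 FPKM). Srsf5, Srsf2 and Srsf3 led the SR genes, Hnrnpl was the third of the hnRNP genes, and Sf3b5, Sf3b2 and Sf3b1 were again the top SF3 genes. Snrpg was 27th of the 50 by mean in amygdala, and Hnrnpf, last in amygdala, reached 45.6 FPKM in blood. Because the tissues were normalised separately, these orders are set side by side without a test.

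**Figure D1:**
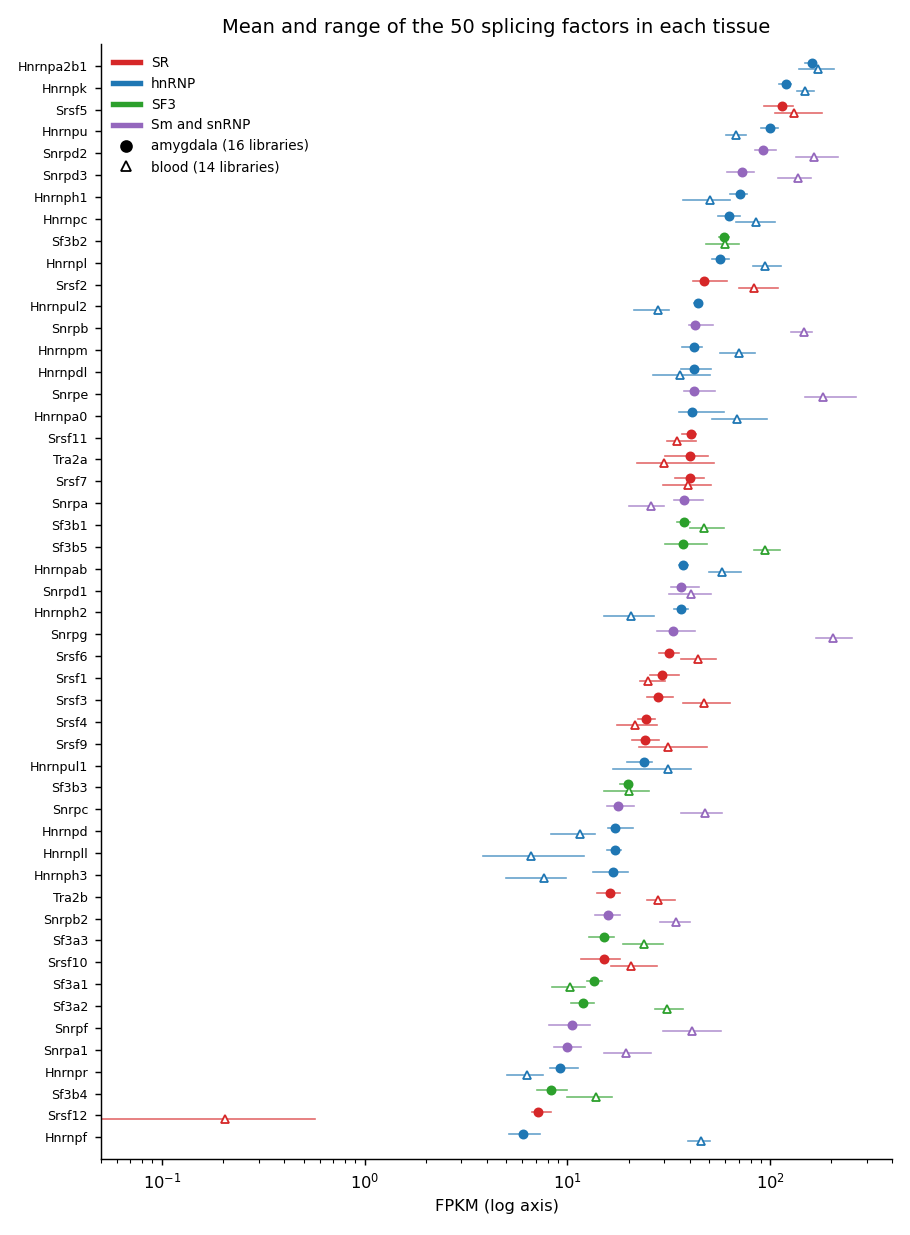
Mean (symbols) and lowest to highest library (lines) of each of the 50 genes in FPKM on a log axis, ordered by the amygdala mean, with filled circles for the 16 amygdala libraries and open triangles for the 14 blood libraries. Snrpg and Snrpe are the top 2 in blood, and Srsf12 has a blood mean of 0.205 FPKM, with its line cut at the left edge because 2 libraries list it at 0.

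Srsf12, an SR gene with low expression outside brain and testis, was at 6.69 to 8.27 FPKM in every amygdala library. In blood it was at 0.571, 0.219 and 0.418 FPKM in HC libraries 1 to 3 and listed at 0 in HC library 4 and Immo+FC library 2, and at 0.0993 to 0.314 FPKM in the other FC and Immo+FC libraries. It was therefore not tested in blood. Neuron markers, summed, were at 23 to 69.2 FPKM in HC blood, 11.4 to 26.8 in FC and 10.7 to 25.6 in Immo+FC, and their part in the blood level of Srsf12 was not tested.

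The spread of these genes between pools was close to that of other genes in amygdala and lower in blood. The other genes were cut at a lowest level only and not matched to the members by level. The median SD within groups was 0.0964 on the log2 scale over the 50 genes in amygdala, beside 0.101 over the 7763 tested genes at or above the level of the lowest member, and 0.161 over 49 genes in blood, beside 0.214 over 6612 genes. Hnrnpul2 varied least in amygdala (SD 0.0364), and Hnrnpk least in blood (0.0810).

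The first comparison asked what fear conditioning changed in the amygdala 2 h later. No member passed an adjusted p of 0.05 in limma for FC against HC, where 2 of 13508 genes (0.0148%) passed. Before adjustment, p was under 0.05 for 9 members, 8 of them higher (16%) and 1 lower (2%) in FC, against 6.59% and 6.48% of all tested genes and 13.1% in both directions. Of the 8, 5 are SR genes (Tra2a, Tra2b, Srsf3, Srsf7 and Srsf10) and 3 are hnRNP genes (Hnrnpm, Hnrnph1 and Hnrnph3), and the lower one was Hnrnpdl. The median log2 fold change was 0.04 over the members and 0.01 over all genes, with 0.07 over the SR genes, of which 11 of 13 were above 0. Of all 13508 genes 7636 were above 0.

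Tra2a had the smallest p of the members and the fifth smallest of all genes. Its level was 30.3 to 37.1 FPKM in HC libraries (median 34.9) and 38.4 to 46.8 FPKM in FC libraries (median 43.8), and it was 49.2, 42.5, 44.5 and 44.1 in Immo+FC libraries 1 to 4. Every FC library was above every HC library, which held for 0.577% of genes in this direction, and no member was below throughout (0.814% of genes). The log2 fold change was 0.33 (SE 0.06), and the adjusted p in limma was 0.0737. The paper, which tested with Cuffdiff, lists Tra2a as higher in FC past its own threshold in this comparison. It passed when HC library 1, 2 or 3, FC library 6 or Immo+FC library 1 was left out, with an adjusted p in limma of 0.0279 to 0.223 over the 16 such fits. Without the 3 amygdala libraries numbered 1 it was 0.32 with an adjusted p of 0.0257 in limma, and with that long transcript score entered as a covariate 0.24 with an adjusted p of 0.193.

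Tra2b was at 14 to 16.8 FPKM in HC, with a median of 15.2, at 16.4 to 18.2 in FC, with a median of 17.1, and at 17.1, 15.8, 15.5 and 16.1 in Immo+FC. HC library 1 lay within the range of FC and the other HC libraries below it. In FC the log2 fold change was 0.18 (SE 0.05, limma adjusted p = 0.114), and it was 0.20 without the libraries numbered 1 (limma adjusted p = 0.0336). With the score of long transcripts as a covariate the value was 0.09 (limma adjusted p = 0.431).

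**Figure D2:**
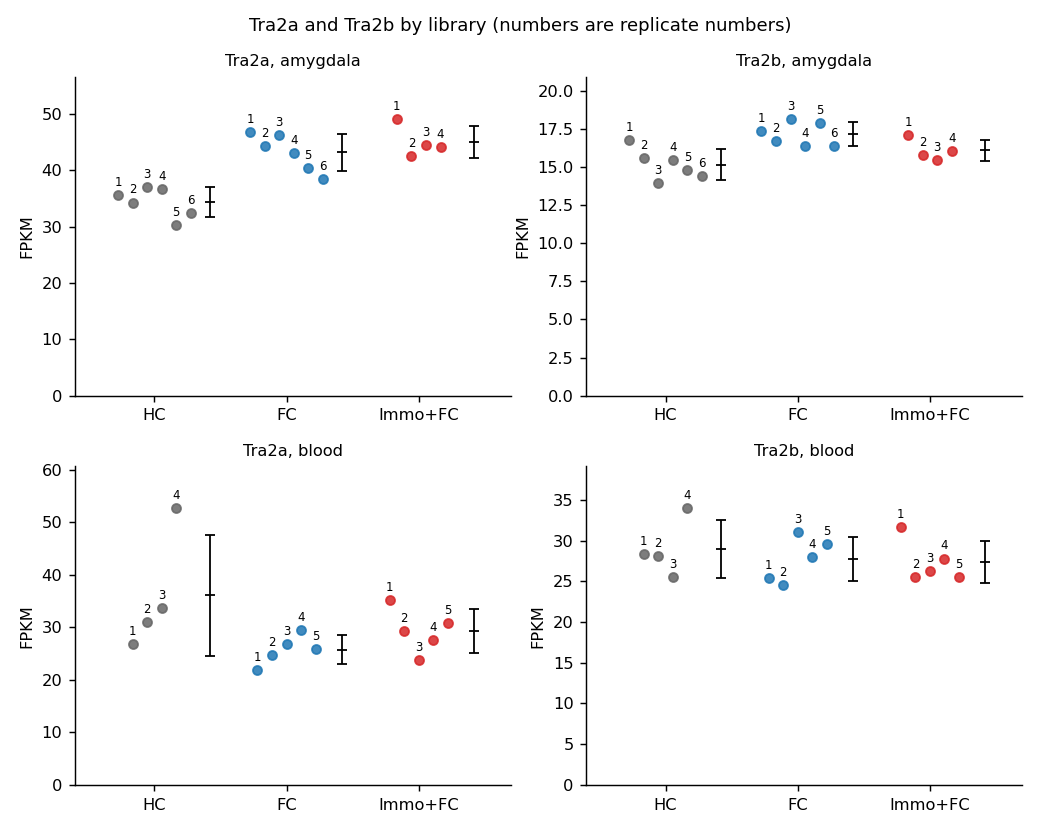
FPKM of Tra2a and Tra2b by library in amygdala (top) and blood (bottom), with replicate numbers beside the points and the group mean ± SD as black bars. In amygdala every FC and Immo+FC library of Tra2a lies above the HC libraries (30.3 to 37.1 FPKM), and in blood HC library 4 (52.7 FPKM) lies far above the others.

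Hnrnpm, which binds GU-rich intronic RNA, was at 36.7 to 42.1 FPKM in HC and at 42.2 to 46.2 in FC, again with no overlap between the groups. Its log2 fold change was 0.13 (SE 0.04, limma adjusted p = 0.138). The remaining genes on this side were singled out after their values were seen. Hnrnph3 was at 13.3 to 16.7 FPKM in HC and 15 to 19.9 in FC (log2 fold change 0.23, SE 0.07), and Srsf7, an SR protein with a role in mRNA export, at 33.7 to 38.8 and 36.7 to 46.9 FPKM (0.17, SE 0.05). Srsf3, which shares that role, was at 24.8 to 26.7 FPKM in HC and 26.3 to 33.0 in FC (0.17, SE 0.06). None of these 3 passed in limma, where the adjusted p ran from 0.142 to 0.213, and with the score of long transcripts as a covariate the values were 0.13 for Hnrnph3, 0.11 for Srsf7 and 0.07 for Srsf3.

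Hnrnpdl, a relative of the AU-rich element binder Hnrnpd, was the 1 member lower in FC at an unadjusted p under 0.05. It was at 40.6 to 51.1 FPKM in HC (median 47.6) and 36.8 to 43.2 in FC (median 41.0), and the groups overlapped. The log2 fold change was -0.20 (SE 0.06, limma adjusted p = 0.155), and -0.13 without HC libraries 1 and 2.

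The second comparison asked what earlier immobilization added to conditioning in the amygdala. No member passed in limma for Immo+FC against FC, where 3 genes (0.0222%) passed, 0.0074% of all genes being higher. Before adjustment, p was under 0.05 for 0 members on the higher side and 1 on the lower, against 3.94% and 6.49% of all genes and 10.4% in both directions. Groups did not overlap for 0 members on the higher side (0.896% of genes) and for Hnrnpd on the lower (1.38%). The member with p under 0.05 was Hnrnpul1, which ranged over 22.5 to 26.0 FPKM in FC and was 19.7, 23.1, 23.4 and 23.2 FPKM in Immo+FC, the lowest value being that of library 1. Its log2 fold change was -0.13 (SE 0.05, limma adjusted p = 0.384), and -0.07 without Immo+FC library 1. By p, Srsf5 (-0.12, SE 0.06, and -0.06 without that library) and then Tra2b (-0.09, SE 0.05) came next, with limma adjusted p of 0.521 and 0.56. Leaving out 1 library gave 0 to 3 members with p under 0.05. There were 0 without FC library 4, against 10.1% of all genes, and 3 (6%) without Immo+FC library 4, against 12.9%. With the score of long transcripts as a covariate there were 9 (18%), against 15.5% of all genes. Tra2a differed by 0.06 (SE 0.07), with 2 standard errors either side spanning -0.07 to 0.20. The median log2 fold change was -0.02 over the members and -0.02 over all genes. Neuron markers were below 0 in 10 of 10 (median -0.07), where 8111 of all 13508 genes were below 0. Choroid plexus (median 1.16) and striatum markers (median 0.43) were above 0 in 9 of 9 each, none with p under 0.05. The part of these cell types in the values of the members was not tested.

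The third comparison set both experiences against the home cage. Tra2a passed, alone of the 50 (2%), where 27 genes (0.2%) passed in all, 0.118% of all genes higher and 0.0814% lower. It was higher in Immo+FC, where every library lay above every HC library, with a log2 fold change of 0.39 (SE 0.07, limma adjusted p = 0.0339). The call rested on single libraries. It was lost when HC library 1, 2, 5 or 6, FC library 4 or Immo+FC library 1, 2 or 3 was left out, with a log2 fold change of 0.35 to 0.42 and a limma adjusted p of 0.0132 to 0.103 over all 16 such fits, and without the 3 libraries numbered 1 the value was 0.36 (limma adjusted p = 0.21).

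Before adjustment, p was under 0.05 for 8 members higher and 5 members lower in Immo+FC than in HC, against 5.34% and 7.73% of all genes. Without Immo+FC library 1 the count was 8 members (16%), against 10.5% of all genes. The higher ones were Tra2a, Hnrnph1, Srsf7, Hnrnpm, Snrpb, Srsf3, Srsf10 and Hnrnph3, and the lower ones Hnrnpdl, Srsf5, Hnrnpr, Hnrnpul1 and Hnrnpd. Both comparisons with HC use the same 6 HC libraries, so their values are not independent. Groups did not overlap for Tra2a, Hnrnph1 and Srsf7 on the higher side, where 1.13% of genes had no overlap, and for Hnrnpdl on the lower side, where 1.44% had none. Of cell type markers in this comparison, P2ry12, a purinergic receptor of microglia, was lower (log2 fold change -0.36, SE 0.05, limma adjusted p = 0.0206), while of the 8 microglia markers 4 were above and 4 below 0, with a median of 0.03 and summed levels of 133 to 166 FPKM in HC and 146 to 160 in Immo+FC. Choroid plexus markers were above 0 in 9 of 9 (median log2 fold change 1.40, 1 of them with p under 0.05). They summed to 2.79 to 1060 FPKM in HC, 3.35 to 917 in FC and 115 to 968 in Immo+FC. Striatum markers were above 0 in 9 of 9 (median log2 fold change 0.46, 192 to 559 FPKM summed in HC and 271 to 615 in Immo+FC). Of 12 neutrophil markers 4 reached the minimum, which a marker can do through the group where it is high, so their direction is not counted. Only 2 of the 12 were above 0 in all HC libraries. Summed, the 12 were at 2.03 to 3.62 FPKM in HC and 2.49 to 9.17 in Immo+FC. The part of these differences in the values of the members was not tested. Over the members the median log2 fold change was 0.02, with 0.05 over the SR genes, -0.04 over the hnRNP genes and -0.01 over all genes.

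Hnrnpdl was at 37.3, 36.3, 40.2 and 38.4 FPKM in Immo+FC, below the 40.6 to 51.1 of HC. Its log2 fold change was -0.28 (SE 0.07, limma adjusted p = 0.0992). HC libraries 3 and 4 (41.4 and 40.6 FPKM) lay close to the range of the Immo+FC group and HC libraries 1, 2 and 5 (51.1, 51.0 and 50.7 FPKM) well above it. Hnrnph1, a binder of G-runs that can act for or against an exon, was at 63.6 to 70.3 FPKM in HC and at 74.6, 75.0, 75.3 and 74.2 in Immo+FC. Its log2 fold change of 0.16 (SE 0.04) had a limma adjusted p of 0.12. Srsf5, the most abundant SR gene of the amygdala, was at 109 to 130 FPKM in HC (median 122), at 107 to 122 in FC and at 93.0, 108, 106 and 113 in Immo+FC. Its log2 fold change against HC was -0.20 (SE 0.06, limma adjusted p = 0.178), and -0.12 without the libraries numbered 1, and the ranges overlapped.

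**Figure D3:**
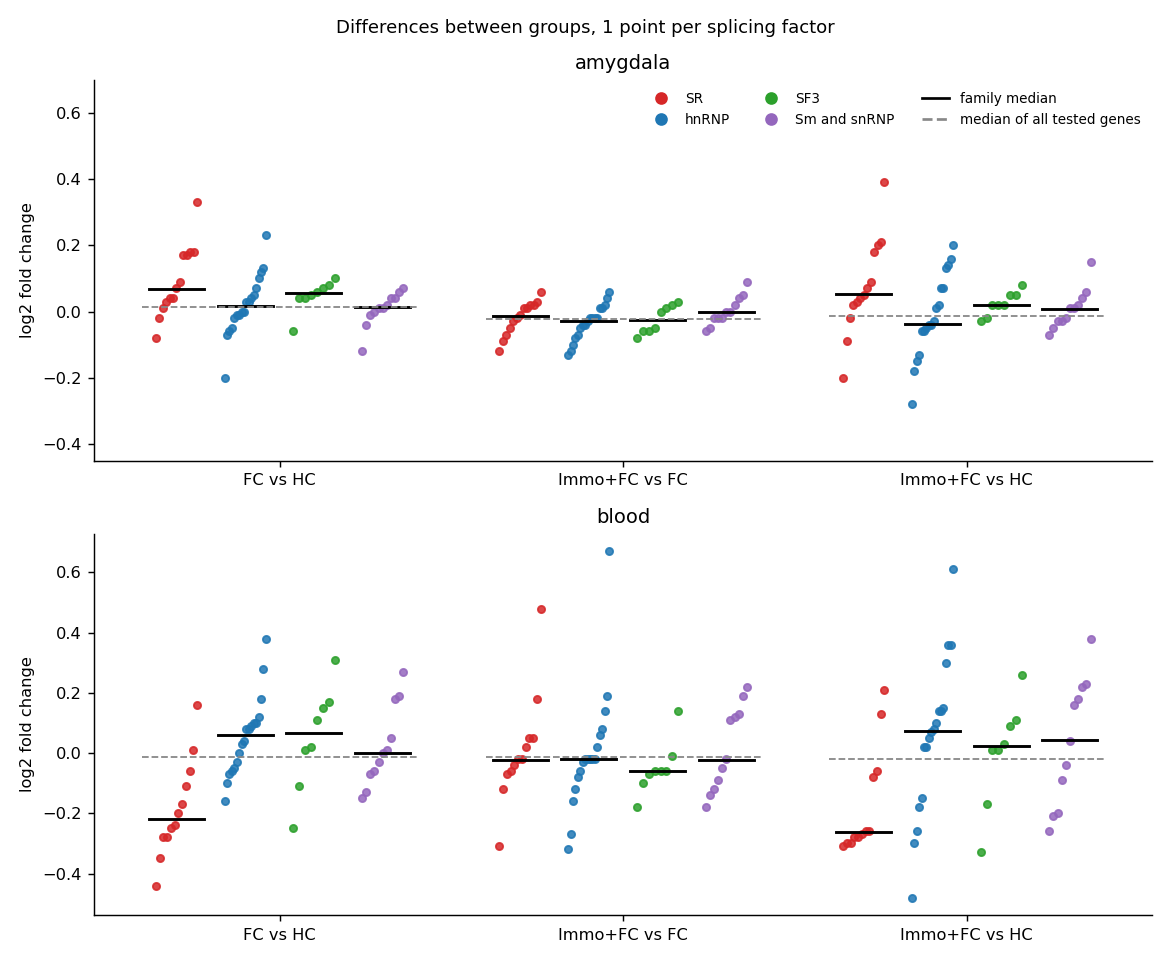
Log2 fold change of each tested member in the 3 comparisons of each tissue, grouped and coloured by family, with black bars for family medians and dashed lines for the median of all tested genes. In amygdala the highest points of FC vs HC and Immo+FC vs HC are Tra2a (0.33 and 0.39), and in blood the SR median lies at -0.22 and -0.26 in the comparisons with HC.

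Srsf2, an SR protein that stays in the nucleus and binds exonic enhancers, did not differ between the groups beyond the spread, with log2 fold changes of 0.04 (SE 0.10), -0.01 (SE 0.12) and 0.03 (SE 0.12) in the order of the comparisons. Its level divided the libraries by number instead. It was at 58.6 FPKM in HC library 1, 60.5 in FC library 1 and 61.3 in Immo+FC library 1, and at 41.7 to 47.9 in all other amygdala libraries. Hnrnpa0, named after its values were seen, showed the same division, with 59.0, 53.8 and 52.8 FPKM in the libraries numbered 1 and 35.6 to 40.1 in the rest. The exons of Srsf2 overlap those of Mettl23 on the opposite strand over 460 bases, and the library kit did not mark strand, so reads of the 2 genes cannot be told apart there. Mettl23 was at 10.9, 12.0 and 14.1 FPKM in the libraries numbered 1 and at 10.5 to 12.9 in the rest.

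In blood no member passed in limma for FC against HC, where 4 of 11656 genes (0.0343%) passed. Before adjustment, p was under 0.05 for 4 members on the higher side and 6 on the lower, 8.16% and 12.2% of the 49 tested, against 4.34% and 5.87% of all genes and 10.2% in both directions. Groups did not overlap for Hnrnpc on the higher side (1.65% of genes) and for 0 members on the lower (2.23%). The higher ones were Snrpa, Hnrnpc, Sf3b4 and Hnrnpul1, and the lower ones Sf3b1 and the SR genes Srsf11, Tra2a, Srsf10, Srsf3 and Srsf9. The median log2 fold change was 0.00 over the members, -0.01 over all genes and -0.22 over the SR genes, of which 10 of 12 were below 0. Of all 11656 genes 6100 were below 0. T cell markers were above 0 in 11 of 11, with p under 0.05 for 7 of them, B cell markers in 8 of 8 and neutrophil markers in 10 of 12 (median 0.63). Below 0 were erythroid markers in 8 of 8 tested (median -0.28), monocyte markers in 6 of 7 (median -0.46) and platelet markers in 6 of 7 tested (median -0.15). Neuron markers were below 0 in 8 of 8 tested, with p under 0.05 for 7 and a median of -2.26, but could reach the minimum through HC alone. With the neuron marker score as a covariate p was under 0.05 for 4 members (8.16%), against 3.5% of all genes. With the neutrophil marker score it was for 10 members (20.4%), against 17.4%. The part of the T, B, erythroid and monocyte cells and of platelets was not tested. The count also moved with single libraries, to 5 (10.2%, against 7.92% of all genes) without HC library 4. It was 6 (12.2%) without FC library 1 or FC library 3, against 9.59% and 8% of all genes. Without HC library 3 it was 15 (30.6%, against 10.1%).

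Snrpa, the A protein of the U1 particle, was at 27.3, 21.5, 22.9 and 20.2 FPKM in HC blood and at 26.4, 26.2, 26.7, 29.8 and 28.7 in FC. HC library 1 lay within the FC range and the other 3 below it. FC differed from HC by 0.27 on the log2 scale (SE 0.09, limma adjusted p = 0.299).

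Srsf11, an SR-related gene also called p54, was at 37.9, 34.0, 43.2 and 42.3 FPKM in HC and at 32.1, 31.4, 32.3, 33.8 and 35.5 in FC. HC libraries 3 and 4, those led by globin, were the highest. FC against HC gave -0.25 on the log2 scale (SE 0.09, limma adjusted p = 0.303), and -0.12 without HC libraries 3 and 4. Tra2a, higher in FC in the amygdala, was at 26.9, 31.0, 33.6 and 52.7 FPKM in HC blood and at 21.9, 24.8, 26.9, 29.4 and 25.8 in FC, a log2 fold change of -0.44 (SE 0.17, limma adjusted p = 0.367). Without HC library 4 it was -0.24. The difference between the tissues was not tested.

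For Immo+FC against FC in blood no gene of 11656 passed in limma (0%), and 1112 had an unadjusted p under 0.05. At that level 2 members were higher and 2 lower, against 5.79% and 3.75% of all genes and 9.54% in both directions. Without Immo+FC library 1 there were 2 (4.08%, against 4% of all genes), and with the neutrophil marker score as a covariate 1 (2.04%, against 5.27%). Srsf9, an SR protein with a short tail, had the smallest p of the members. Its values were 22.4, 32.1, 24.2, 26.0 and 23.6 FPKM in FC and 35.4, 48.5, 32.2, 39.6 and 26.0 in Immo+FC, with HC between 29.6 and 38.0. The log2 fold change against FC was 0.48 (SE 0.15, limma adjusted p = 0.523).

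Hnrnpll, which directs exclusion of exons of the Ptprc (CD45) transcript in activated lymphocytes, was at 5.73, 5.74, 4.41, 5.40 and 4.68 FPKM in FC and at 11.8, 12.1, 5.71, 8.63 and 5.40 in Immo+FC. Immo+FC libraries 1 and 2 were well above the other libraries of the group. On the log2 scale the difference was 0.67 (SE 0.26, limma adjusted p = 0.523). HC blood was at 3.85, 4.08, 9.15 and 5.69 FPKM, with library 3 above every FC library. Neutrophil markers, summed, were at 12300 to 44600 FPKM in Immo+FC, 8520 to 21100 in FC and 4520 to 29900 in HC (29900 in library 3), and with their score as a covariate the value was 0.36 (limma adjusted p = 0.808). Against FC, monocyte markers were above 0 in 7 of 7 (median log2 fold change 0.68). B cell markers were below 0 in 8 of 8 (median -0.41) and T cell markers in 11 of 11 (median -0.22). The part of these 3 cell types in the value of Hnrnpll was not tested. Hnrnpr and Hnrnpdl were the lower members. Hnrnpr ranged from 6.27 to 7.10 FPKM in FC and from 5.06 to 6.45 in Immo+FC (log2 fold change -0.27, SE 0.09, limma adjusted p = 0.523), and Hnrnpdl at 33.0 to 45.6 and 26.4 to 32.9 FPKM (-0.32, SE 0.13, limma adjusted p = 0.523). For Hnrnpdl the groups did not overlap, which held for 0.884% of genes in this direction, while 0 members lay above throughout (0.695% of genes).

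For Immo+FC against HC in blood no member passed in limma, where 8 genes (0.0686%) passed, 0.0429% of all genes being lower. Before adjustment, p was under 0.05 for 6 members on the higher side and 9 on the lower, 12.2% and 18.4% of the 49, against 7.14% and 8.12% of all genes and 15.3% in both directions. Without HC library 4 the count was 7 members (14.3%), against 11.9% of all genes. Of the 12 neutrophil markers 9 were higher and of 8 tested neuron markers 7 were lower at the same level. Neuron markers, low in blood, could reach the minimum through HC alone. With the neutrophil marker score as a covariate the count was 7 members (14.3%), against 19.2% of all genes, and with the neuron marker score 8 (16.3%), against 8.26%. The lower ones were Sf3b1, Hnrnpdl, Srsf11, Hnrnpr, Hnrnpl, Srsf3, Srsf2, Srsf6 and Srsf10, and the higher ones Hnrnpc, Snrpc, Snrpa, Sf3b4, Hnrnph2 and Hnrnpll. The median log2 fold change was -0.26 over the 12 SR genes, with 10 below 0, beside 0.02 over the members and -0.02 over all genes. Of all 11656 genes 6178 were below 0.

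Sf3b1, the branch point scaffold of the SF3b complex, was at 52.8, 59.2, 48.5 and 55.6 FPKM in HC, at 45.1, 43.9, 45, 50.7 and 41.9 in FC, and at 44.6, 40.9, 40.1, 43.0 and 46.6 in Immo+FC. Every Immo+FC library was below every HC library, as for 2.77% of genes. On the log2 scale Immo+FC differed from HC by -0.33 (SE 0.09, limma adjusted p = 0.0978), and by -0.21 with the neutrophil marker score as a covariate. Hnrnpc, which binds U-tracts and restrains the use of cryptic exons, was at 70.3, 67.6, 81.6 and 69.1 FPKM in HC and at 104, 106, 88.0, 84.5 and 82.5 in Immo+FC, again without overlap, as for 1.84% of genes. Immo+FC against HC gave 0.36 on the log2 scale (SE 0.10, limma adjusted p = 0.105), and 0.23 with that covariate. FC libraries, at 84.8 to 95.7 FPKM, also lay above HC, with 0.28 (SE 0.10) and a limma adjusted p of 0.303.

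The number of calls in this comparison depended on the settings of the fit and on HC library 3, for all genes as for the members. With all libraries kept, 102 genes (0.875%) and 0 members passed in limma with a pseudocount of 1. With array weights 361 genes (3.1%) and 5 members passed. Without HC library 3, the library with the highest globin value, 296 genes (2.55%) passed in limma in place of 8, and 5 of the members were among them: Sf3b1, Hnrnpdl and Hnrnpl lower and Hnrnpc and Snrpc higher in Immo+FC than in HC. Without HC libraries 3 and 4 together, which leaves 2 HC libraries, 0 members and 6 genes passed. In Hnrnpdl the values were 50.5, 48.0, 31.6 and 37.3 FPKM in HC and 26.4, 27.2, 31.0, 32.9 and 30.4 in Immo+FC, so that HC library 3 lay within the Immo+FC range. The log2 fold change was -0.48 (SE 0.14, limma adjusted p = 0.12) with all libraries and -0.61 (limma adjusted p = 0.0334) without HC library 3.

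**Figure D4:**
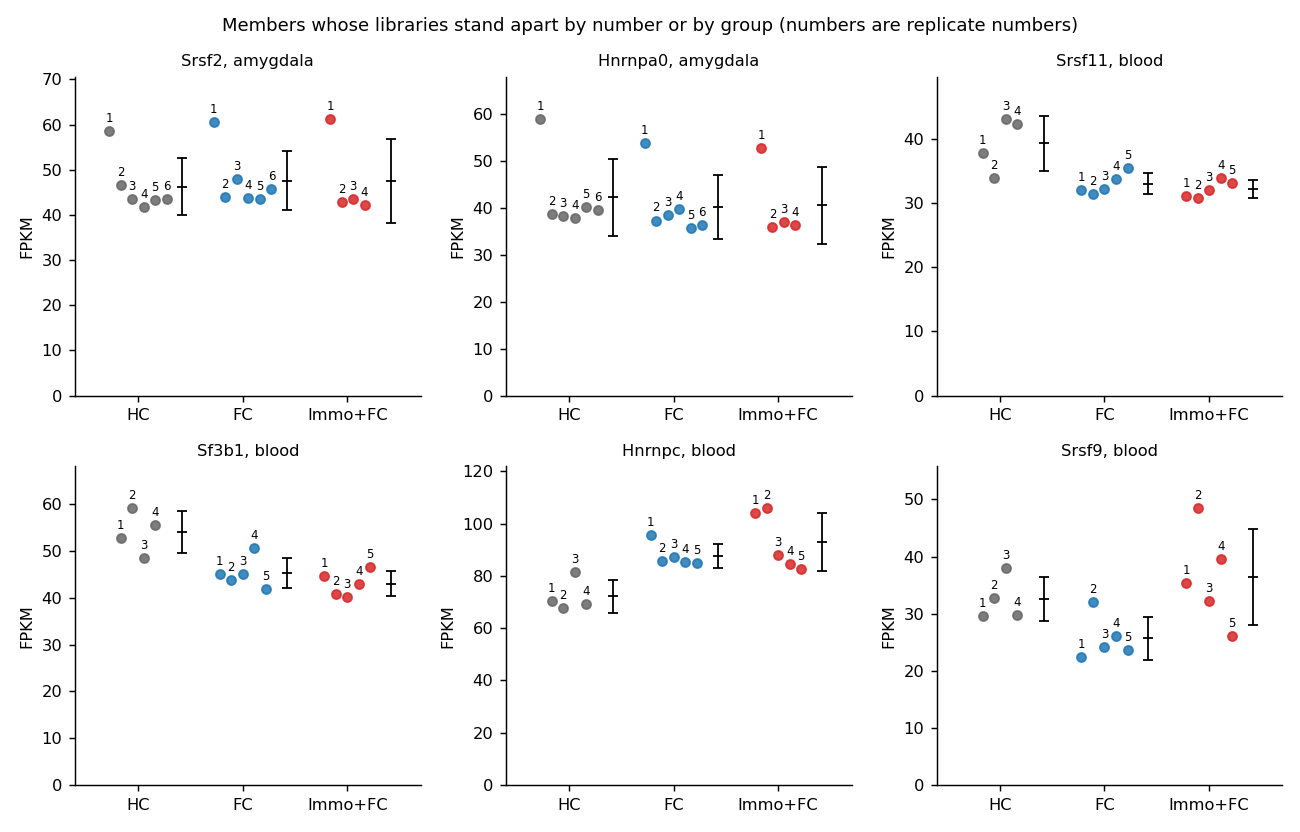
FPKM by library, with replicate numbers and the group mean ± SD, for Srsf2 and Hnrnpa0 in amygdala and Srsf11, Sf3b1, Hnrnpc and Srsf9 in blood. Srsf2 in amygdala is at 58.6 to 61.3 FPKM in the libraries numbered 1 and at 41.7 to 47.9 in all others, and Sf3b1 in blood is lower in every Immo+FC library than in any HC library.

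Other genes of the splicing pathway were read off the same fits as 8 lists. In all 6 comparisons together, 1 of their genes passed. Cirbp, an RNA-binding protein induced by mild cold, was at 32.4 to 47.5 FPKM in HC amygdala, at 30.9 to 38.0 in FC, and at 29.8, 23.9, 30.4 and 26.9 in Immo+FC. It was lower in Immo+FC than in HC, with a log2 fold change of -0.53 (SE 0.10, limma adjusted p = 0.0494), and all Immo+FC libraries were below all HC and all FC libraries. Of all genes 1.44% lay wholly below HC and 1.38% wholly below FC in this way. The call was kept only when HC library 3, HC library 4 or Immo+FC library 4 was left out, and was lost without any other 1 of the 16, with a log2 fold change of -0.59 to -0.46 and a limma adjusted p of 0.0258 to 0.19. Against FC the value was -0.33 (SE 0.10, limma adjusted p = 0.255).

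Rbm3, the other cold-inducible gene, did not pass in limma in either tissue. The paper, with Cuffdiff, lists it as lower in Immo+FC than in FC of the amygdala past its own threshold. In amygdala it was at 24.1 to 38.1 FPKM in HC and at 19.3, 18.1, 23.1 and 25.7 in Immo+FC (log2 fold change -0.44, SE 0.12, limma adjusted p = 0.124, and -0.25 without Immo+FC libraries 1 and 2). In blood it was at 160, 162, 200 and 107 FPKM in HC, at 103, 101, 123, 109 and 129 in FC, and at 58.8, 80.2, 81.8, 100 and 89.1 in Immo+FC. The Immo+FC libraries were below all others, and the log2 fold change against HC was -0.93 (SE 0.18, limma adjusted p = 0.0567). Of all genes in blood 2.77% lay wholly below HC and 0.884% wholly below FC in this way. In blood Rbm3 passed when HC library 3 or Immo+FC library 4 was left out, with a limma adjusted p of 0.0334 to 0.14 over the 14 such fits. It also passed in 5 of 12 other settings. Cirbp in blood was at 109, 107, 61.5 and 51.4 FPKM in HC, at 65.4 to 99.7 in FC and at 43.0, 41.4, 58.5, 50.5 and 53.0 in Immo+FC, with -0.67 (SE 0.21) against HC and -0.71 (SE 0.20) against FC and limma adjusted p of 0.14 and 0.523. HC libraries 3 and 4 were within or near the Immo+FC range and HC libraries 1 and 2 above the highest FC library, and without HC libraries 3 and 4 the value of Cirbp against HC was -1.14 (limma adjusted p = 0.0334).

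**Figure D5:**
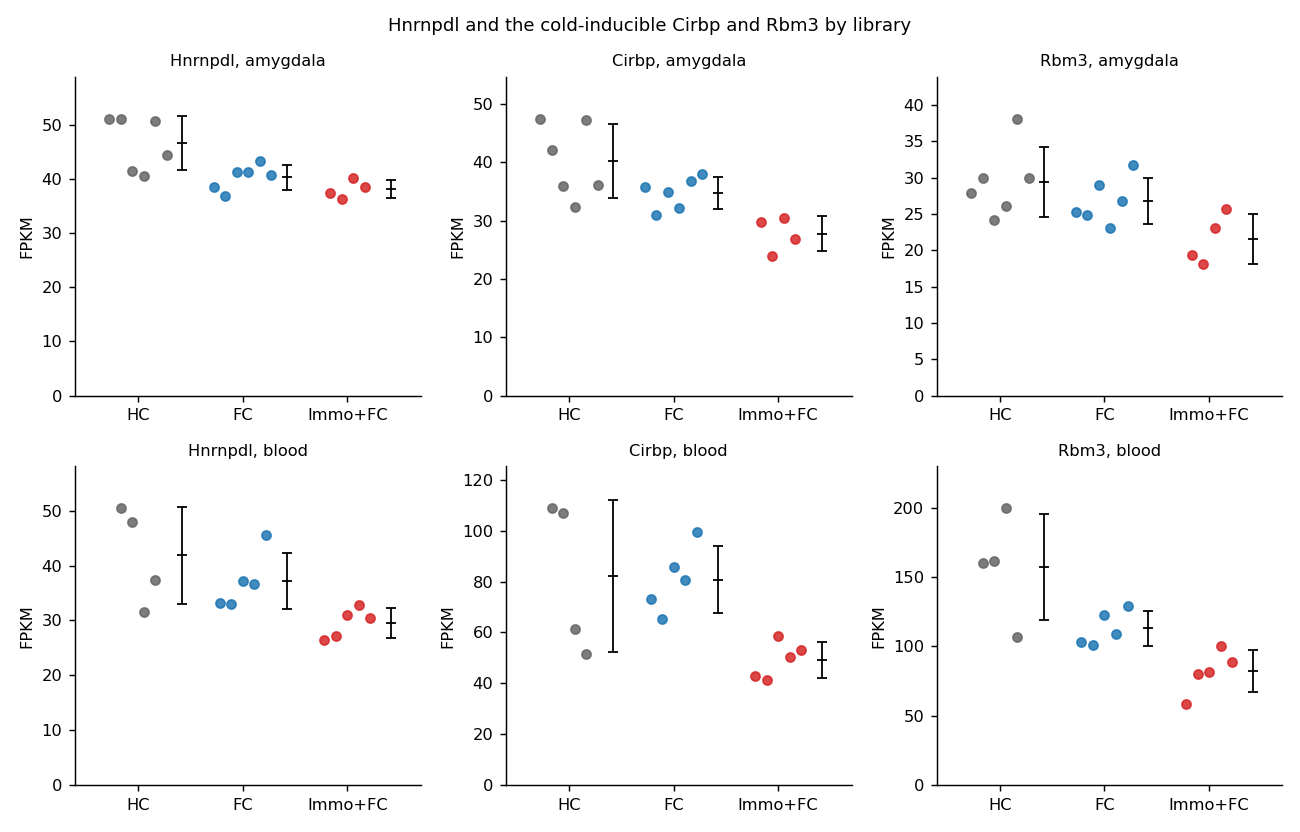
FPKM by library of Hnrnpdl, Cirbp and Rbm3 in amygdala (top) and blood (bottom), with the group mean ± SD as black bars. In amygdala the Immo+FC libraries of Cirbp (23.9 to 30.4 FPKM) lie below all HC and FC libraries, and in blood the Immo+FC libraries of Rbm3 (58.8 to 100 FPKM) lie below all HC and FC libraries.

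In the other 7 lists no gene passed in limma in any comparison. Among 23 SR-related proteins, 21 of them tested in blood, 18 were below 0 in Immo+FC against HC of blood, with a median of -0.19 beside -0.02 over all genes. Lower at an unadjusted p under 0.05 were 4 of them. Of all 11656 genes 6178 were below 0, and 8.12% were lower at that p. Luc7l2, a U1-associated protein, had the smallest p of the list there (log2 fold change -0.47, SE 0.10, limma adjusted p = 0.0581) and was lower in every Immo+FC library than in any HC library, as for 2.77% of genes. Its value in FC against HC was -0.34 (SE 0.10, limma adjusted p = 0.175). Celf4, an RNA-binding protein of neurons, was at a mean of 0.496 FPKM in FC and 2.13 in HC blood (-1.81, SE 0.48, limma adjusted p = 0.146). Srpk3, an SR protein kinase, had -0.54 (SE 0.17, limma adjusted p = 0.523) in Immo+FC against FC. In amygdala Ccnl2, a cyclin found in nuclear speckles, had a log2 fold change of 0.18 (SE 0.05, limma adjusted p = 0.11) in FC and 0.20 (SE 0.05, limma adjusted p = 0.118) in Immo+FC against HC. Son, a large protein of nuclear speckles, differed by -0.40 (SE 0.11, limma adjusted p = 0.131) in FC against HC of the amygdala and by 0.47 (SE 0.13, limma adjusted p = 0.191) in Immo+FC against FC, and Smg1, the kinase of nonsense-mediated decay, by 0.42 (SE 0.12, limma adjusted p = 0.202) in the latter. The long transcript scores of the libraries differ between these groups as given above, and their part was not tested. Of the tissue splicing regulators, 25 of 35 tested genes were below 0 in Immo+FC against HC of the amygdala, with a median of -0.04. Below 0 there were 7379 of all 13508 genes, with a median of -0.01. The SR protein kinases, which phosphorylate SR proteins, had medians of 0.00 in FC and -0.03 in Immo+FC against HC of the amygdala, with 11 of 11 tested, and in the latter 1 had p under 0.05 before adjustment on each side. Of 16 exon junction and decay factors 14 were above 0 in each of these comparisons, which share the HC libraries, with medians of 0.06 and 0.05. Of all 13508 genes 7636 were above 0 in FC against HC and 6129 in Immo+FC against HC, with medians of 0.01 and -0.01.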

How the data were processed

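The authors aligned paired reads of poly-A selected, unstranded libraries to mm10 with STAR 2.3 and computed the deposited FPKM values with Cufflinks 2.1.1, each tissue separately, and tested with Cuffdiff 2.1.1. In each comparison that the paper reports, its test called more genes than the fits here. How reads with several matches were shared was not given in the sources used here, so genes with close copies, such as Sm genes, are uncertain. The deposited mapping table made by the authors gives total sequences as counts and mapped shares in percent. No column lacked a mapped sample.

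Here log2(FPKM + 0.1) was fitted with limma 3.58.1 (R 4.3.3, moderated variances with a trend), 3 groups per tissue in 1 fit without covariates, for genes that reached 0.5 FPKM on average. Tests were two-sided, adjusted by Benjamini and Hochberg over all tested genes, and called at 0.05. Fold changes are on that log2 scale and understate those of low genes. The fit was tested on simulated data with errors drawn independently for each gene. Such data cannot show how it behaves where many genes of a library deviate together. FPKM values give no depth per gene, so no counting interval is printed. No libraries were identical.

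Genes named are, per comparison, members past the threshold and the 3 with the smallest p, the 3 highest of each family per tissue, members listed in the study's tables (Tra2a, Hnrnpdl, Hnrnpll and Srsf9), members under the minimum, and for the other lists the called genes or the 2 smallest p. A gene of those lists that the rule names is not reported here. The members, lists and rule were chosen with earlier results of these data known. Alternatives were other pseudocounts, filters, scalings, covariates and left-out libraries. Positions are from GENCODE vM21 and promoters from RefSeq.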

Additional observations from a re-analysis of the deposited data

Results flagged for a closer look

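Of 123 groups of libraries checked for a value far from the rest of its group, 9 were picked out by Dixon's criterion, and chance picks about 1 group in 20. Srsf2 was picked in all 3 amygdala groups, each time for library 1, at 58.6 FPKM in HC (others 41.7 to 46.6), 60.5 in FC (43.6 to 47.9) and 61.3 in Immo+FC (42.1 to 43.6). Immo+FC amygdala library 1 was also low for Hnrnpul1 (19.7 FPKM, others 23.1 to 23.4), Sf3b1 (34.5, others 38.5 to 38.8) and Snrpd3 (64.4, others 75.1 to 75.4), and FC amygdala library 1 for Sf3b2 (55.8, others 60.4 to 62.4). In blood, FC library 1 was high for Hnrnpc (95.7 FPKM, others 84.8 to 87.2) and Immo+FC library 4 for Snrpe (210, others 149 to 165). Immo+FC amygdala library 1 had the lowest number of sequences (23148078) and the lowest share mapped to a single place (91.33%) of the amygdala set, and the part of this in its values was not tested. No member had non-overlapping groups in opposite directions in the 2 tissues.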

How the results depend on the processing

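Direction held for named genes except in 3 cases near 0: Tra2a in Immo+FC against FC of the amygdala was 0.00 with the replicate block, Tra2b there 0.00 with the long transcript covariate, and Tra2a in Immo+FC against HC of blood 0.01 without HC libraries 3 and 4. Counts of calls moved for all genes too, so all-gene shares stand beside them. Members called in FC against HC of the amygdala (0, all genes 0.0148%) became 2 with array weights (all genes 3.7%), 3 with the replicate block (1.18%), 2 without HC libraries 1 and 2 (2.65%), 2 without the libraries numbered 1 (2.01%), and 0 to 2 leaving out 1 library. In Immo+FC against HC of the amygdala the 1 became 0 with no filter, only the 2 groups, array weights, the replicate block, without HC or Immo+FC libraries 1 and 2, or without the libraries numbered 1 (all genes 0 to 0.118%), and 0 to 1 leaving out 1 library. In Immo+FC against HC of blood the 0 became 5 with array weights (all genes 3.1%) and 0 to 5 leaving out 1 library (2.55% without HC library 3). Medians over members became -0.02 in FC against HC and 0.06 in Immo+FC against FC of the amygdala with the long transcript covariate, -0.08 in Immo+FC against FC of blood with quantile normalization, and -0.05 to 0.04 in FC against HC of blood leaving out 1 library, the lowest without HC library 3. Other splicing genes called in FC against HC of the amygdala (0) became 5 with array weights, 1 with the replicate block, 3 without HC libraries 1 and 2, 3 without the libraries numbered 1, in the fits whose all-gene shares are given above, and 0 to 1 leaving out 1. In Immo+FC against FC there (0) they became 3, 1, 3 and 3 in that order (all genes 1.27%, 0.459%, 0.897% and 1.96%), and 0 to 2. In Immo+FC against HC there (1, Cirbp) they became 0 with no filter, median-ratio scaling, quantile normalization, only the 2 groups, array weights, the replicate block and each of the 3 sets of left-out libraries, and 0 to 2 leaving out 1. In blood they became 1 in FC against HC (0) with no filter or the neutrophil covariate (all genes 1.11% and 1.32%). In Immo+FC against HC of blood (0) they became 2 with a pseudocount of 1, no filter, quantile normalization or the neutrophil covariate (all genes 0.599% to 0.875%), 5 with array weights, 1 without HC libraries 3 and 4 (0.052%), and 0 to 4 leaving out 1 (HC library 3 or Immo+FC library 4). The cause was not tested. Same-numbered libraries deviated together with correlations of -0.26 to 0.31, so numbers were not taken to pair samples. Leaving out the libraries numbered 1, or HC blood libraries 3 and 4, was chosen after seeing the data. FPKM hold no depth per gene, which limits what low genes such as Srsf12 can show.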

Other observations

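The 3 joined entries left out by the rule were read as values. The entry of Snrpn and Snurf, which holds the imprinted gene of the neuronal Sm protein SmN, was at 306 to 362 FPKM in the amygdala libraries. In blood it was at 5.64, 2.71, 14.3 and 6.19 FPKM in HC, at 0.308, 0.462, 0.534, 0.214 and 2.84 in FC, and at 0.441, 1.04, 1.7, 2.12 and 0.567 in Immo+FC, with summed neuron markers at 23 to 69.2 FPKM in HC blood. The entry of Gm5643 and Hnrnpa1 was at 120, 113, 102 and 96 FPKM in HC blood and at 63, 79.8, 84.3, 83.8 and 96.1 in Immo+FC, and in amygdala at 75.3 to 88.5 in HC and 65.1 to 80.1 in Immo+FC. The entry of Gm6793 and Hnrnpa3 was at 72.4 to 89.2 FPKM in HC blood and 75.5 to 96.6 in Immo+FC. Each entry sums its genes, so the share of the named splicing factor is not known.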
